A study of Mus musculus with 6 samples.

Results

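The peroxisome proliferator-activated receptors (PPAR), the retinoid X receptors (RXR) and the liver X receptors (LXR) are nuclear receptors that bind DNA as PPAR-RXR or LXR-RXR pairs. Their 8 genes, Pparg, Ppara, Ppard, Rxra, Rxrb, Rxrg, Nr1h2 and Nr1h3, were followed while mouse fat precursors turned into beige adipocytes. They were chosen by symbol from the 45808 gene lines of the count table, and all 8 were found and passed the filter on low counts. The study's title names Naa10 and PGC1-alpha in beige fat, and all 6 libraries analysed here are labelled WT, with no strain named. The cells were stromal-vascular cells of inguinal white fat from male mice aged 8 weeks, a mixed primary culture and not a clone. The groups are confluent cells at day 0 with no induction, cells after 2 days in induction medium at day 2, and cells at day 6 after a further spell in maintenance medium, with 2 libraries each, numbered 76 and 77. Induction medium carried rosiglitazone (1 µM), indomethacin (125 µM), the glucocorticoid dexamethasone (5 µM), the phosphodiesterase inhibitor IBMX (0.5 mM), insulin (850 nM) and the thyroid hormone T3 (1 nM), while the maintenance medium that followed had rosiglitazone, T3 and insulin alone, at unchanged doses. Rosiglitazone is a PPARγ agonist and was in the medium before days 2 and 6 but not before day 0, so time in culture and the agents cannot be told apart. The design text speaks of biological replicates, but the sources used here do not say whether 76 and 77 came from separate mice, so a p-value here measures the spread between libraries of a day, which may be technical.

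These receptors are transcription factors switched by lipids. RXR is the shared partner: each PPAR and each LXR binds its sites together with an RXR, typically at repeats of the hexamer AGGTCA, and recruits corepressors or coactivators depending on ligand. PPARγ, from Pparg, drives the formation of fat cells and is the target of the thiazolidinediones. PPARα, from Ppara, controls fatty acid oxidation and is prominent in liver and brown fat, and PPARδ, from Ppard, is broadly expressed with overlapping targets. LXRα, from Nr1h3, and LXRβ, from Nr1h2, sense oxysterols and control cholesterol export and fatty acid synthesis. LXRα is enriched in liver, fat and macrophages and LXRβ is widespread. RXRα and RXRβ are broadly expressed, whereas RXRγ, from Rxrg, is more restricted, with known sites in muscle, brain and fat.

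The 4 receptors that rose most steeply were Pparg, Ppara, Rxrg and Nr1h3, 1 or 2 from each family, while the changes of their relatives Ppard, Rxra, Rxrb and Nr1h2 stayed within 0.45 on the log2 scale. Between day 2 and day 0, 5 of the 8 genes were higher, 1 was lower and 2 did not pass a Benjamini-Hochberg adjusted p of 0.05 in edgeR's quasi-likelihood test. Of the 14459 genes tested, 67.1% passed in that comparison, 33.6% higher and 33.6% lower. Between day 6 and day 0, 6 of 8 passed and all 6 were higher, beside 70.9% of all genes, 35.9% higher and 35.1% lower. Between day 6 and day 2, 6 of 8 were again higher, beside 65.7% of all genes, 38.2% higher and 27.5% lower. In the joint test over the 3 days, 7 of 8 passed, all but Rxrb, beside 84.8% of all genes. Since most genes passed, the number of receptors called is near that background in each comparison, and the sizes of the changes carry more of the description than the counts. The median log2 change over the 8 was 0.83, 2.24 and 0.61 for day 2 against day 0, day 6 against day 0 and day 6 against day 2, where that over all genes was 0.0042, -0.01 and 0.12.

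**Figure D1:**
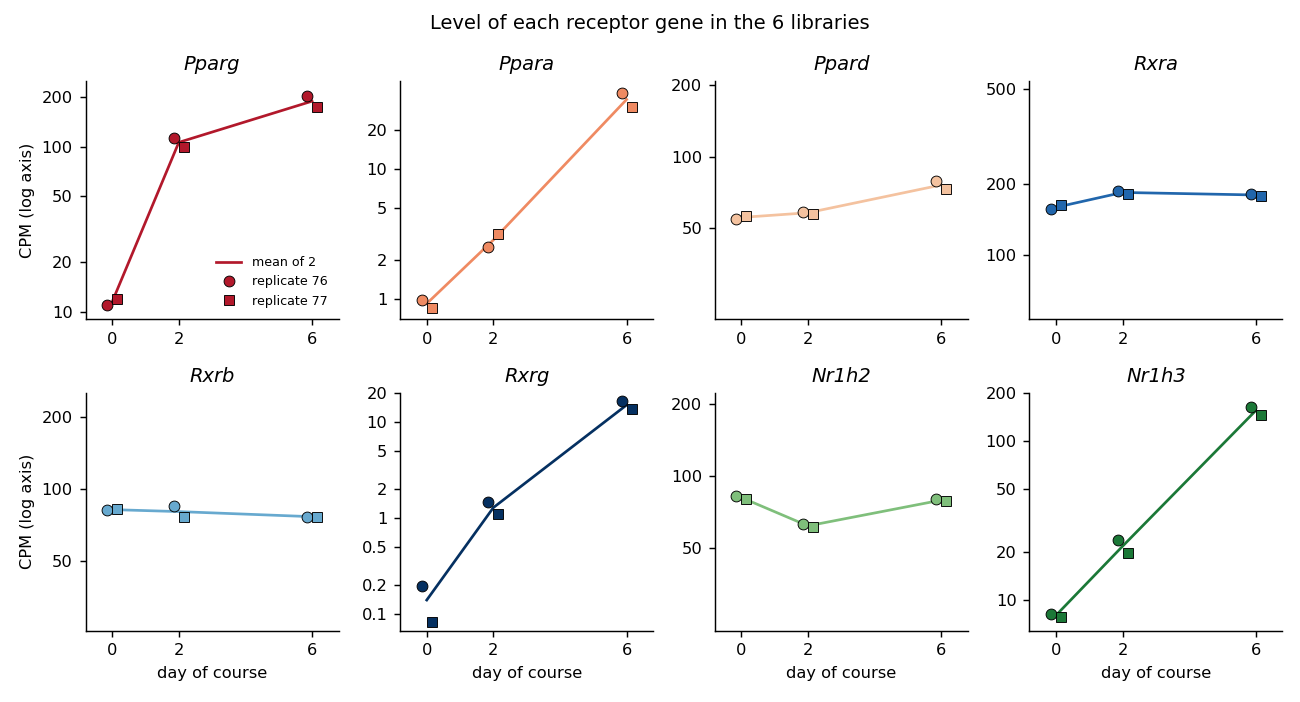
Level of each receptor gene (CPM, log axis) against the day of the course. Counts were divided by the library total and edgeR's TMM factor. Circles are replicate 76, squares are replicate 77, and a line runs through the day means. Pparg, Ppara, Rxrg and Nr1h3 climb from day to day with no overlap between days, and the other 4 genes stay within a narrow band.

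Counts in genes ranged from 22522221 to 29458374 per library. Levels in CPM are deposited counts divided by the library total and edgeR's TMM factor, and where a mean is given it carries the SD of the 2 libraries. Precursor markers summed to 32683 and 28118 CPM at day 0, 3948 and 4257 CPM at day 2 and 3199 and 5021 CPM at day 6, most of it the collagen gene Col1a1, with 28424 ± 3263 CPM at day 0, 2803 ± 84.8 CPM at day 2 and 3186 ± 1031 CPM at day 6. Of the 8 precursor markers, 6 were lower at day 2 and 7 at day 6, each against day 0, and none was higher. Beside them, 33.6% and 35.1% of all genes tested were lower. Dpp4 had 9.98 ± 3.53 CPM at day 0, 0.875 ± 0.0843 CPM at day 2 and 0.525 ± 0.174 CPM at day 6. Ly6a changed less, with 559.5 ± 36.4 CPM at day 0, 652 ± 50.8 CPM at day 2 and 447 ± 108 CPM at day 6. Adipocyte markers summed to 147 and 208 CPM at day 0, 3903 and 3657 CPM at day 2 and 33883 and 27717 CPM at day 6. Most of that sum at days 2 and 6 was Fabp4, with 3019 ± 124 CPM and 18126 ± 3089 CPM. Of the 8 adipocyte markers, some are also PPARγ targets, and 7 were tested. At day 2 against day 0, 6 were higher and 1 was lower, and at day 6 all 7 were higher than at day 0. Of all genes tested, 33.6% were higher and 33.6% lower at day 2, and 35.9% higher at day 6. The lower marker was Cfd, with 23.9 ± 7.54 CPM at day 0 and 10.3 ± 3.89 CPM at day 2. It had 229 ± 25.3 CPM at day 6. Leptin (Lep), a hormone of mature white adipocytes, had 3 and 3 counts at day 6. In bulk RNA, a change in the share of cells that carry a receptor and a change in its RNA per cell cannot be told apart.

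Scaling decides the smaller changes. With library totals in place of TMM the median log2 change of all genes was 0.12 for day 2 against day 0, -0.26 for day 6 against day 0 and -0.23 for day 6 against day 2, and the split of calls moved to 5557 higher and 4149 lower, 3967 and 6475, and 3650 and 6181. With TMM the splits were 4853 and 4851, 5184 and 5069, and 5519 and 3981. Values relative to the median of all genes are given below for the genes with small changes. They had the same sign under both scalings for all 8 receptors in all 3 comparisons. A change of scaling shifts all genes nearly alike, so this likeness follows from taking off the median and is no further support.

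Pparg rose early. The gene lies at chr6:115360951-115490399 on the plus strand (GRCm38, GENCODE M21), and counts fell on its exons, so its promoters and isoforms are not separated here. It had 11.1 and 11.98 CPM at day 0, 112 and 100.2 CPM at day 2 and 203 and 173 CPM at day 6. The 2 libraries of each day lay close together and no days overlapped. Pparg was 9.20-fold higher at day 2 than at day 0 (log2 change 3.20, SE 0.11, adjusted p = 3.70e-07 by edgeR) and 16.3-fold higher at day 6 than at day 0 (log2 change 4.03, SE 0.11, adjusted p = 3.79e-08). Day 6 exceeded day 2 by 1.77-fold (log2 change 0.83, SE 0.096, adjusted p = 0.000104), or by a log2 change of 0.46 with library totals. Relative to the median of all genes it was 0.70 under both scalings. Of its log2 change by day 6, 79.5% had been reached by day 2, when its level was 56.4% of that at day 6. Among all 14459 genes tested, 205 had a larger fitted rise at day 2 and 429 at day 6.

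RefSeq gives 3 promoter windows for Pparg on GRCm38.p6, each from 250 bases before to 50 bases after an annotated start. They are shown because they hold the annotated starts of the receptor with the largest rise at day 2, with each AGGTCA, on either strand, in capitals. The window at chr6:115360894-115361193 holds a hexamer that begins 28 bases before the start, and the window at chr6:115362099-115362398 holds another that begins 9 bases before it. The window at chr6:115421816-115422115 surrounds an internal start, and these letters were not found in it.
Pparg chr6:115360894-115361193 plus: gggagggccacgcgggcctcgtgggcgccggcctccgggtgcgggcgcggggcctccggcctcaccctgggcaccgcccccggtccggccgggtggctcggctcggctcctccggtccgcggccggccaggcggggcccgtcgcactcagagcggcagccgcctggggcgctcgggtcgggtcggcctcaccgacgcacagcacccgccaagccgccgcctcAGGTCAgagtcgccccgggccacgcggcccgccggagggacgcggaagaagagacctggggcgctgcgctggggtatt
Pparg chr6:115362099-115362398 plus: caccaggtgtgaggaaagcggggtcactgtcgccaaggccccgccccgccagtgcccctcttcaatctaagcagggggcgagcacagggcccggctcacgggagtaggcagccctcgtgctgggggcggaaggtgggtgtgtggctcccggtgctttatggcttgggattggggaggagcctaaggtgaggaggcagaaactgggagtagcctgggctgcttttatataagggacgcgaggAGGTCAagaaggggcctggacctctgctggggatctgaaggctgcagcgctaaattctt
Pparg chr6:115421816-115422115 plus: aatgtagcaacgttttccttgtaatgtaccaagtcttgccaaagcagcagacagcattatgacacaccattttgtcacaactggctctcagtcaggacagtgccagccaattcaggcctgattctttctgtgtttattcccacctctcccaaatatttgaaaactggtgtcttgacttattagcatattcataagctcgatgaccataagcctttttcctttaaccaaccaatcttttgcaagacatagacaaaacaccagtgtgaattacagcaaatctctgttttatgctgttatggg
The windows differ in base composition, with 80.3%, 62.7% and 40.3% G and C. Over all 32851 mouse windows, 16.3% hold at least 1 AGGTCA on either strand, so a match is common and is given as a description only.

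Ppara rose late and from a very low level. The gene (chr15:85734983-85802819, plus strand) had 0.993 and 0.865 CPM at day 0, 2.51 and 3.20 CPM at day 2 and 38.6 and 29.7 CPM at day 6, which rests on 30 and 21 counts at day 0. The days did not overlap. It was 3.04-fold higher at day 2 than at day 0 (log2 change 1.60, SE 0.26, adjusted p = 0.000729 by edgeR) and 36.4-fold higher at day 6 than at day 0 (log2 change 5.19, SE 0.21, adjusted p = 2.17e-07). The ratio of pooled CPM was 3.04 (exact 95% counting interval 2.21 to 4.25) for day 2 over day 0 and 36.7 (exact 95% counting interval 27.8 to 49.6) for day 6 over day 0. The sources name no molecular identifiers, so reads need not be separate molecules and these intervals cover counting error only. Of the log2 change by day 6, 30.9% had been reached by day 2, and the level at day 2 was 8.37% of that at day 6. Ppard (chr17:28232700-28301474, plus strand) had 54.8 and 56.3 CPM at day 0, 58.6 and 57.6 CPM at day 2 and 78.7 and 73.4 CPM at day 6. Days 0 and 2 lay close together and day 6 was above both. Day 2 did not pass against day 0 (log2 change 0.07, SE 0.067, adjusted p = 0.410 by edgeR). Day 6 was 1.37-fold higher than day 0 (log2 change 0.45, SE 0.067, adjusted p = 0.000358) and 1.31-fold higher than day 2 (log2 change 0.39, SE 0.067, adjusted p = 0.00102). With library totals the day 6 value against day 2 was 0.03 and did not pass (adjusted p = 0.714), and relative to the median of all genes it was 0.26.

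Rxrg was the receptor with the largest fitted rise over the course. The gene (chr1:167598384-167639623, plus strand) had 6 and 2 counts at day 0, 43 and 31 counts at day 2 and 370 and 273 counts at day 6, or 0.199 and 0.0823 CPM at day 0, 1.46 and 1.11 CPM at day 2 and 16.5 and 13.6 CPM at day 6. It was all but undetected at day 0 and the days did not overlap. Day 2 was 8.56-fold higher than day 0 (log2 change 3.10, SE 0.43, adjusted p = 0.000283 by edgeR), and day 6 was 99.7-fold higher than day 0 (log2 change 6.64, SE 0.32, adjusted p = 4.97e-07) and 11.6-fold higher than day 2 (log2 change 3.54, SE 0.22, adjusted p = 3.15e-06). Of the log2 change of Rxrg by day 6, 46.7% had been reached by day 2, when its level was 8.55% of that at day 6. Pooled over libraries the ratio was 8.81 (exact 95% counting interval 4.24 to 21.2) for day 2 over day 0 and 103 (exact 95% counting interval 52.0 to 240.0) for day 6 over day 0. The log2 change of day 6 against day 0 was 7.43 without replicate 76 of day 0 and 6.22 without replicate 77 of day 0, since 8 counts carry the whole baseline. Of the 50-base stretches of its exons, 0.341% occur elsewhere in the transcripts.

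RXRα and RXRβ made up nearly all of the RXR RNA at day 0 and changed little. Rxra (chr2:27676440-27762957, plus strand) had 156 and 162 CPM at day 0, 187 and 181 CPM at day 2 and 181 and 178 CPM at day 6. Days 2 and 6 overlapped each other and lay above day 0. It was 1.16-fold higher at day 2 than at day 0 (log2 change 0.21, SE 0.068, adjusted p = 0.0253 by edgeR), a call that 1 library decides. Leaving out day 0 library 76 gave an adjusted p of 0.171 by edgeR, leaving out day 2 library 76 one of 0.126, and leaving out day 2 library 77 one of 0.0595, while the log2 change without day 0 library 77 was 0.38. Day 6 was 1.13-fold higher than day 0 (log2 change 0.17, SE 0.068, adjusted p = 0.0499 by edgeR), at the edge of the threshold, and the direction turned with library totals (log2 change -0.07, or 0.18 relative to the median of all genes). That call held in 1 of 12 alternatives, with edgeR or DESeq2 adjusted p from 0.0338 to 0.389. Day 6 against day 2 did not pass (log2 change -0.04, SE 0.068, adjusted p = 0.672). Rxrb (chr17:34031812-34038399, plus strand) had 81.4 and 82.2 CPM at day 0, 84.4 and 76.1 CPM at day 2 and 76.4 and 76.4 CPM at day 6. The libraries of day 2 spanned those of day 0, day 6 lay just below day 0, and the gene passed in none of the 3 comparisons nor in the joint test (adjusted p = 0.422 by edgeR). Its log2 change for day 6 against day 0 was -0.10 (SE 0.072), and for day 2 against day 0 it was -0.03, turning to 0.08 with library totals, and -0.03 relative to the median of all genes under both scalings.

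The promoter windows of Rxrg and Rxra below are the only RXR windows of RefSeq in which AGGTCA was found. They set the receptor with the largest fitted rise over the course beside the steady gene. Both surround starts inside the gene. Each gene has another window nearer its first base, chr1:167598112-167598411 for Rxrg and chr2:27676951-27677250 for Rxra, in which AGGTCA was not found. The Rxrg window shown has 1 hexamer that begins 88 bases before the start. The Rxra window shown has 1 on the minus strand that begins 87 bases before the start, written TGACCT, and 1 on the plus strand that begins 48 bases before it.
Rxrg chr1:167618015-167618314 plus: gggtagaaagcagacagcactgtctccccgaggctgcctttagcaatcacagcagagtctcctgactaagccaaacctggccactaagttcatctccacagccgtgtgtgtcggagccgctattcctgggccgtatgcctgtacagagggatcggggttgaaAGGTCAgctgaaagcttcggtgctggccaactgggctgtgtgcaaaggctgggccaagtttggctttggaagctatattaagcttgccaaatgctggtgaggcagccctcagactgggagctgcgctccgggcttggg
Rxra chr2:27709042-27709341 plus: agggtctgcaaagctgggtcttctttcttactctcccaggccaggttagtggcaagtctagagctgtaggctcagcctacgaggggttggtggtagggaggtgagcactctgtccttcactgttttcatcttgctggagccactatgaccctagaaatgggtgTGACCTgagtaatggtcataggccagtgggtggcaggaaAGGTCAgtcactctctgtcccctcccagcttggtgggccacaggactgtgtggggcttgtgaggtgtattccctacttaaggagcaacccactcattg
In the Rxra window, tGGTCAtAGGcCA begins 75 bases before the start. It is a repeat of AGGTCA with a spacer of 1 base (DR1, AGGTCANAGGTCA, the kind of site PPAR-RXR pairs bind) in which 2 of the 12 fixed letters differ, shown in lower case with the spacer. Such repeats with up to 2 changes stand in the windows of 4.403% of 27025 genes. AGGTCA was not found in the 5 windows of Nr1h3, Nr1h2, Ppara and Ppard or in the 2 of Rxrb.

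Nr1h3 and Nr1h2 parted company. Nr1h3 (chr2:91184061-91202834, minus strand) had 8.14 and 7.82 CPM at day 0, 23.9 and 19.6 CPM at day 2 and 165 and 147 CPM at day 6. Each day lay above the one before, with most of the gain after day 2. It was 2.72-fold higher at day 2 than at day 0 (log2 change 1.45, SE 0.12, adjusted p = 1.72e-05 by edgeR), 19.5-fold higher at day 6 than at day 0 (log2 change 4.28, SE 0.12, adjusted p = 3.65e-08) and 7.15-fold higher at day 6 than at day 2 (log2 change 2.84, SE 0.11, adjusted p = 3.52e-07). By day 2 it had reached 33.7% of its log2 change and 14.0% of its day 6 level. Nr1h2 (chr7:44549616-44553951, minus strand) had 82.3 and 79.9 CPM at day 0, 62.6 and 60.7 CPM at day 2 and 79.8 and 78.4 CPM at day 6. It dipped at day 2 and returned at day 6, when its libraries lay just below those of day 0. Day 2 was 1.32-fold lower than day 0 (log2 change -0.40, SE 0.063, adjusted p = 0.000623 by edgeR), day 6 did not pass against day 0 (log2 change -0.04, SE 0.063, adjusted p = 0.618), and day 6 was 1.28-fold higher than day 2 (log2 change 0.36, SE 0.063, adjusted p = 0.00115). With library totals the day 6 value against day 2 was 0.00 and did not pass, and relative to the median of all genes it was 0.24, or 0.23 with library totals. Of the exonic length of Nr1h3, 1.35% overlaps the gene Gm13783.

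**Figure D2:**
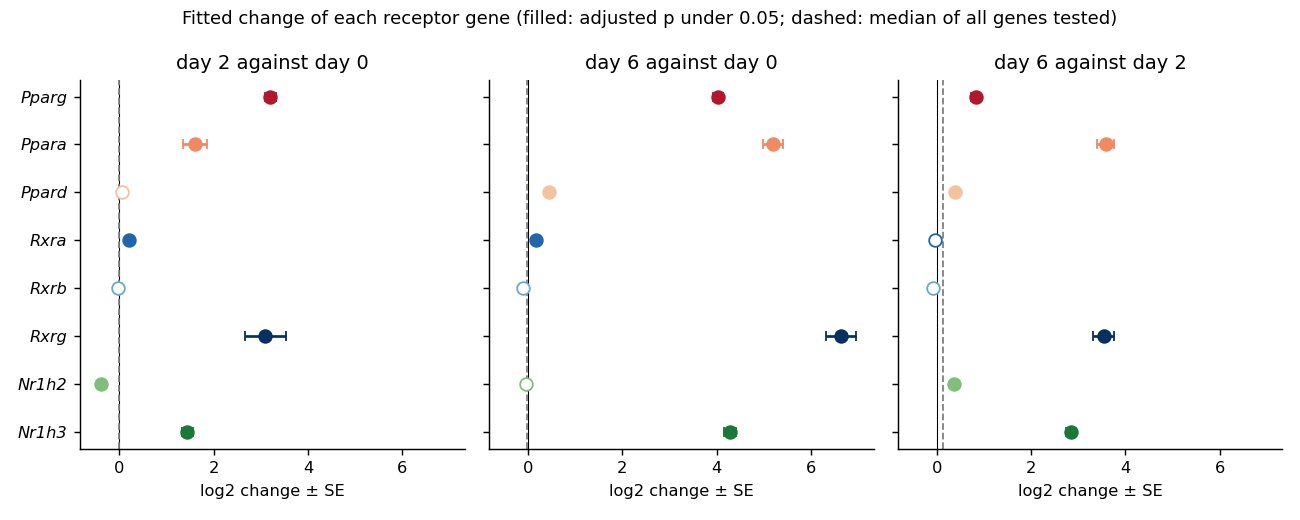
Fitted log2 change of each receptor gene with its standard error (horizontal bars), for day 2 against day 0, day 6 against day 0 and day 6 against day 2, with filled points past an adjusted p of 0.05 by edgeR and a dashed line at the median of all genes tested. Pparg has most of its change by day 2, while Ppara, Rxrg and Nr1h3 gain 3.58, 3.54 and 2.84 after it.

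Macrophages also express Nr1h3 and Pparg, and some of their markers were higher at day 6 than at day 0, as were 35.9% of all genes tested. The 11 macrophage markers summed to 54.4 and 46.9 CPM at day 0, 67.01 and 35.1 CPM at day 2 and 152 and 62.2 CPM at day 6, and at day 6 against day 0 6 of the 10 tested passed as higher (2 without replicate 76 of day 6, without replicate 76 or 77 of day 0, or with library totals). Replicate 76 of day 6 had the higher macrophage sum and held 165 CPM of Nr1h3, against 147 CPM in replicate 77. Without replicate 76 of day 6 the log2 change of Nr1h3 against day 0 was 4.20, and that of Ppara was 4.99. Schwann cell markers summed to 10.6 and 9.55 CPM at day 0, 3.43 and 1.98 CPM at day 2 and 33.0 and 25.6 CPM at day 6. Of the 5 tested, 2 were higher and 1 lower at day 6 than at day 0, beside 35.9% and 35.1% of all genes tested. Erbb3 had 0.454 ± 0.0600 CPM at day 0 and 1.44 ± 0.421 CPM at day 6. Most of the day 6 sum was Mbp, a myelin gene, at 24.7 ± 3.84 CPM, and Sox10, which defines the lineage, had 18 and 4 counts at day 6 and 20 and 8 at day 0. Gfra3 was at 0 in all 6 libraries, as were the muscle precursor markers Pax7 and Myf5. Skeletal muscle markers summed to 13.6 and 26.1 CPM at day 0, most of it Des, at 19.6 ± 8.95 CPM. They summed to 3.64 and 1.40 CPM at day 2 and 6.25 and 7.73 CPM at day 6. Pericyte and smooth muscle markers summed to 707 and 653 CPM at day 0. They had 161 and 177 CPM at day 2 and 331 and 388 CPM at day 6. Endothelial markers summed to 35.9 and 31.0 CPM at day 0. They had 6.93 and 6.65 CPM at day 2 and 12.6 and 16.0 CPM at day 6. The part of these cells in the receptor changes was not tested.

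Levels of different receptors can be set beside each other only per length, here as CPM per kilobase of annotated exon. At day 0 the order was Rxra (29.1 ± 0.819 CPM per kb), Nr1h2 (24.2 ± 0.516), Rxrb (20.6 ± 0.147), Ppard (7.39 ± 0.135), Pparg (3.91 ± 0.206), Nr1h3 (3.17 ± 0.09004), Ppara (0.242 ± 0.0237) and Rxrg (0.0612 ± 0.0358), and no neighbours overlapped. At day 2 Pparg (35.9 ± 2.85 CPM per kb) and Rxra (33.6 ± 0.785) led and overlapped each other, followed by Rxrb (20.2 ± 1.49) and Nr1h2 (18.4 ± 0.409). Nr1h3 (8.65 ± 1.22) and Ppard (7.74 ± 0.0959) came next and overlapped, and Ppara (0.745 ± 0.126) and Rxrg (0.561 ± 0.107) were still last. At day 6 Pparg (63.7 ± 7.26 CPM per kb) and Nr1h3 (61.9 ± 5.07) led and overlapped each other. Rxra (32.8 ± 0.402), Nr1h2 (23.6 ± 0.302) and Rxrb (19.2 ± 0.0107) followed, then Ppard (10.1 ± 0.499) and Ppara (8.90 ± 1.64), which overlapped, and Rxrg (6.56 ± 0.897). Overlap here is across the libraries of a day. Within each library the gene named first of each overlapping pair was the higher. The order depends on the length used, including the first place at day 0. Per kilobase of the longest transcript, Nr1h2 stood at 40.6 and Rxra at 32.4 at day 0, in the reverse order, and Pparg stood at 88.5 and Nr1h3 at 78.4 at day 6.

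The make-up of the PPAR and LXR families turned over, and that of the RXR family shifted at its edge. Per kilobase, Pparg was 33.9% ± 0.852 of the PPAR sum at day 0, 80.9% ± 1.28 at day 2 and 77% ± 0.0339 at day 6. Ppard was 64.0% ± 0.589, 17.4% ± 0.892 and 12.3% ± 0.793 of the same sum on those days, and Ppara 2.10% ± 0.263, 1.69% ± 0.392 and 10.7% ± 0.759. The lead thus passed from Ppard to Pparg by day 2 in both libraries. Nr1h3 was 11.6% ± 0.0719 of the LXR sum at day 0, 31.9% ± 2.58 at day 2 and 72.4% ± 1.38 at day 6, and took the lead over Nr1h2 by day 6. Within the RXR sum, Rxrg was 0.124% ± 0.0742 at day 0, 1.03% ± 0.151 at day 2 and 11.2% ± 1.28 at day 6, beside 58.5%, 61.8% and 56.0% for Rxra. With the longest transcript as the length, Pparg was 26.4%, 75.2% and 74.4% of the PPAR sum on the 3 days, Nr1h3 9.02%, 26.2% and 66.4% of the LXR sum, and Rxrg 9.80% of the RXR sum at day 6.

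**Figure D3:**
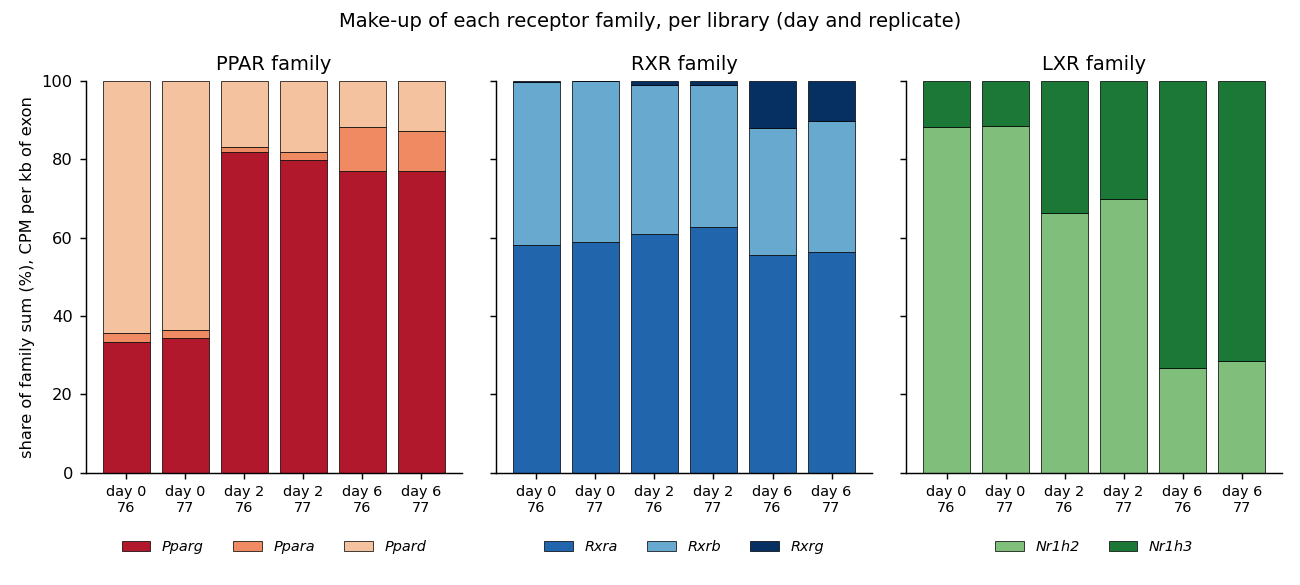
Share of each gene in the sum of its family (percent of CPM per kilobase of exon), stacked for each of the 6 libraries, which are named by day and replicate number. Pparg goes past Ppard between days 0 and 2, Nr1h3 goes past Nr1h2 between days 2 and 6, and Rxrg becomes visible at day 6 with 12.1% and 10.3% of the RXR sum.

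Summed per kilobase, the PPAR genes stood at 11.5 ± 0.317 CPM per kb at day 0, 44.4 ± 2.82 at day 2 and 82.7 ± 9.40 at day 6. The LXR genes stood at 27.4 ± 0.606, 27.0 ± 1.63 and 85.5 ± 5.37, so their sum held level until day 2 while its make-up moved. The RXR genes stood at 49.8 ± 0.930, 54.4 ± 2.38 and 58.6 ± 1.29 CPM per kb. The sum of PPAR and LXR over that of RXR was 0.782 ± 0.0204 at day 0, 1.31 ± 0.0242 at day 2 and 2.87 ± 0.189 at day 6. These are ratios of RNA levels and say nothing of protein or of pairs formed. They rest on annotated exon length and, like the order of levels, depend on the length used. They therefore do not settle which sum was larger at day 0.

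Among the 34 nuclear receptor genes that could be tested, the 4 largest fitted rises at day 2 against day 0 were those of Pparg, Rxrg, Ppara and Nr1h3, in that order. At day 6 against day 0 these 4 were among the 5 largest, in the order Rxrg, Ppara, Nr1h3 and Pparg. Of all genes tested, 33.6% were higher and 33.6% lower at day 2, and 35.9% and 35.1% at day 6, each against day 0. Of the 26 other receptors tested, 8 were higher and 10 lower at day 2 (5 lower without replicate 77 of day 0, and 6 without replicate 76 of day 2), and 7 were higher and 12 lower at day 6.

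**Figure D4:**
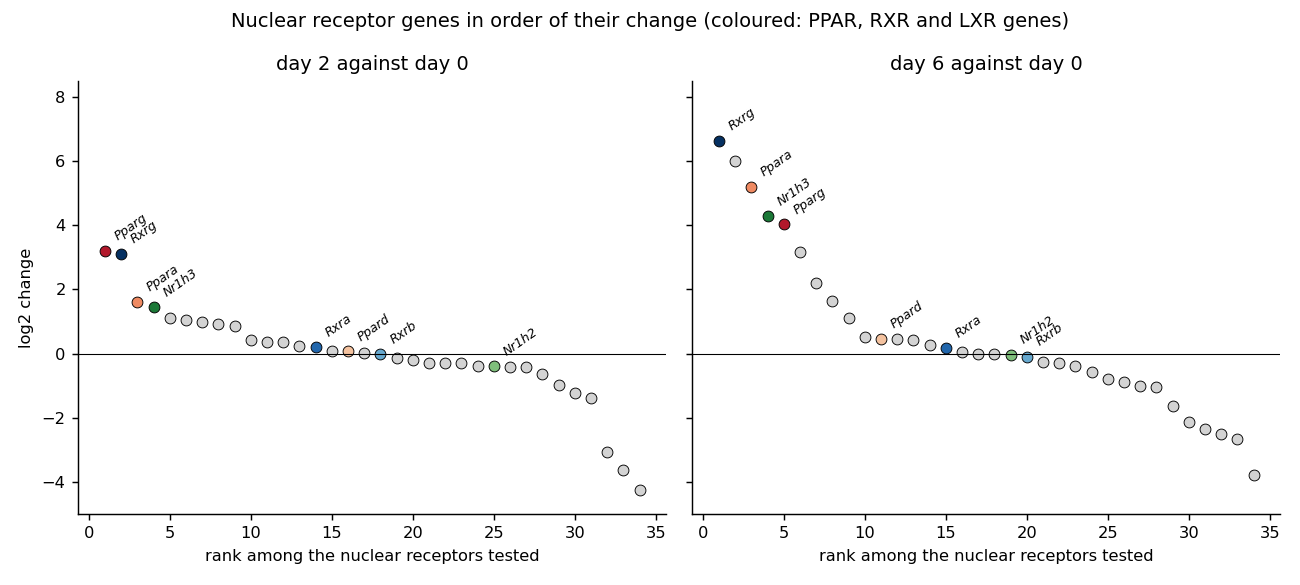
Fitted log2 change of the 34 nuclear receptor genes tested, in order of size, for day 2 against day 0 and day 6 against day 0, with PPAR, RXR and LXR genes in colour and named. Pparg, Rxrg, Ppara and Nr1h3 take the first 4 places at day 2 and 4 of the first 5 at day 6, and Nr1h2 lies among the receptors that fell at day 2.

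The targets of the receptors were read from lists of known genes, chosen with earlier results of these data known. For this list and those that follow, the shares of all genes tested are the measure. They were 33.6% higher and 33.6% lower at day 2 against day 0, and 35.9% and 35.1% at day 6 against day 0. At day 6 against day 2 they were 38.2% and 27.5%. All 14 listed fat cell targets of PPARγ were tested. At day 2 against day 0, 12 rose and the other 2 did not pass, and at day 6 all 14 were higher than at day 0 and than at day 2. Their median log2 change was 3.61 for day 2 against day 0, 7.81 for day 6 against day 0 and 3.41 for day 6 against day 2. Cidec, a lipid droplet protein, had 0.536 ± 0.0565 CPM at day 0, 87.7 ± 6.86 CPM at day 2 and 5275 ± 432 CPM at day 6. Its fitted change was 7.35 for day 2 against day 0 and 13.26 for day 6 against day 0, the largest of the list in both. Cd36, a fatty acid transporter, had 6.51 ± 1.86 CPM at day 0, 423 ± 29.3 CPM at day 2 and 4006 ± 443 CPM at day 6 (65.6-fold higher at day 2 than at day 0, adjusted p = 3.45e-07 by edgeR). Gpd1, which makes glycerol 3-phosphate, had 2.51 ± 1.16 CPM at day 0, 104 ± 4.03 CPM at day 2 and 3758 ± 197 CPM at day 6 (log2 change 10.58 for day 6 against day 0). Slc2a4, the insulin-responsive glucose transporter, had 0.801 ± 0.318 CPM at day 0, 5.89 ± 0.0865 CPM at day 2 and 383 ± 86.6 CPM at day 6 and gained most after day 2 (65.1-fold higher at day 6). Pck1, a source of glycerol in fat, had 178 and 116 counts at day 6, against 6 and 0 at day 2.

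DR1-like repeats, with up to 2 changed letters, were found in the promoter windows of Aqp7 and Cd36 among the 7 PPARγ targets with a RefSeq window here, and of Plin2 and Ucp3 among 9 of the PPARα and PPARδ list. They are shown because they are the closest matches to the PPAR-RXR repeat in the windows of these targets, on the strand of the motif, with changed letters and the spacer in lower case. Distances are to the end of the site farthest upstream on the gene's strand. For a site on the minus strand that is the last letter shown. For Aqp7, first start means only the start listed first here, that of the window at chr4:41047913-41048212. The other start, that of the window at chr4:41048087-41048386, lies upstream of it.
Aqp7, first start, minus strand of the gene, beginning 101 bases before the start: AGGggAgAGGTCA
Aqp7, other start, minus strand of the gene, beginning 56 bases before the start: AGGTCAgAGGTgg
Cd36, minus strand of the gene, beginning 63 bases before the start: AaGTCAgAGGcCA
Plin2, minus strand of the gene, beginning 225 bases before the start: AGGTCAggGGTCc
Ucp3, plus strand of the gene, beginning 51 bases before the start: AGGTttcAGGTCA
All 4 of these genes were higher at day 6 than at day 0. Aqp7, a glycerol channel, was 225-fold higher (log2 change 7.81, SE 0.21, adjusted p = 3.36e-08 by edgeR), and Plin2, a lipid droplet coat protein, 21.1-fold (log2 change 4.40, SE 0.098, adjusted p = 1.92e-08). Known PPAR sites often lie far from promoters, so most could not be seen in these windows. The 11 LXR targets with a window held no repeat with a spacer of 1 base and none with a spacer of 4 (DR4, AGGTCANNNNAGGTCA, the LXR-RXR kind) at up to 2 changes, beside 4.403% and 3.47% of all genes.

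Of the 16 listed fatty acid oxidation targets shared by PPARα and PPARδ, 14 were tested, and Cyp4a10 and Cyp4a14, microsomal fatty acid hydroxylases, were too low. At day 2 against day 0, 8 rose and 3 fell, with a median log2 change of 0.91, or 0.38 without Ucp3, which was at or under 3 counts on both days. At day 6 against day 0, 11 rose and 2 fell, with a median of 3.64. The members differed in when they were highest. Angptl4, a lipase inhibitor, had 59.2 ± 0.901 CPM at day 0, 584 ± 36.0 CPM at day 2 and 468 ± 47.1 CPM at day 6. Its highest level was at day 2, although the day 6 value against day 2 did not pass once day 2 library 76 was left out (edgeR adjusted p = 0.115). Ehhadh, the peroxisomal bifunctional enzyme, had 6.62 ± 0.0991 CPM at day 0, 8.62 ± 0.397 CPM at day 2 and 343 ± 43.2 CPM at day 6 (39.8-fold higher at day 6 than at day 2). Cpt1b, the muscle carnitine palmitoyltransferase, had 126 and 85 counts at day 6 against 1 and 5 at day 2, although 81.4% of its exonic length overlaps Gm44502. Ucp3, a mitochondrial carrier of muscle and brown fat, had 112 and 67 counts at day 6, against 0 in both day 0 libraries, at least 76.6-fold more than a floor of 3 counts over the day. Those that were lower included Cpt1a, the liver form, with 69.4 ± 3.89 CPM at day 0, 47.9 ± 4.97 CPM at day 2 and 55.5 ± 5.88 CPM at day 6. Its day 6 call against day 0 did not hold when day 0 library 76 was left out (log2 change -0.27). Nor did it hold in a separate fit without day 6 library 76 (log2 change -0.21). Vnn1, a pantetheinase, had 6 and 5 counts at day 6 against 33 and 26 at day 0 (log2 change -2.04, adjusted p = 0.00312). Acot1, a cytosolic acyl-CoA thioesterase, was 2.18-fold lower at day 2 than at day 0, with 19.2% of its 50-base stretches shared with other transcripts.

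Of the 15 listed LXR targets, 13 were tested, and the sterol exporters of liver and gut, Abcg5 and Abcg8, were too low. At day 2 against day 0, 7 rose and 4 fell (median log2 change 1.25), and at day 6 against day 0, 11 rose and 2 fell (median 2.80). Scd1, the stearoyl-CoA desaturase, had 414 ± 16.2 CPM at day 0, 4788 ± 184 CPM at day 2 and 53660.3 ± 11809.9 CPM at day 6 (log2 change 3.53 for day 2 and 7.02 for day 6, each against day 0). Mlxipl, which encodes the glucose-sensing factor ChREBP, had 0.775 ± 0.301 CPM at day 0, 5.28 ± 0.506 CPM at day 2 and 117 ± 23.5 CPM at day 6 (154-fold higher at day 6 than at day 0, adjusted p = 6.35e-08 by edgeR). Apoc1, an apolipoprotein, had 490 and 381 counts at day 6, against 6 and 8 at day 2. The cholesterol exporters Abca1 and Abcg1 were higher at day 6 than at day 0. Abca1 had 138 ± 22.9 CPM at day 0, 391 ± 33.3 CPM at day 2 and 462 ± 29.9 CPM at day 6 (log2 change 1.74 for day 6 against day 0, adjusted p = 5.41e-06 by edgeR), and Abcg1 had 5.78 ± 0.902 CPM at day 0, 22.3 ± 0.740 CPM at day 2 and 71.5 ± 3.34 CPM at day 6 (log2 change 3.62, adjusted p = 5.51e-08). Other listed targets fell at day 2. Pltp, the phospholipid transfer protein, had 41.4 ± 4.37 CPM at day 0, 12.8 ± 0.157 CPM at day 2 and 60.9 ± 3.89 CPM at day 6 (log2 change -1.69 for day 2 against day 0). Mylip, which degrades the LDL receptor, had 54.3 ± 1.65 CPM at day 0, 20.1 ± 0.556 CPM at day 2 and 39.2 ± 4.81 CPM at day 6 and Arl4c, a small GTPase, 24.3 ± 3.24 CPM at day 0, 7.39 ± 0.0229 CPM at day 2 and 2.87 ± 0.590 CPM at day 6. Arl4c was lower in all 3 comparisons, with a log2 change of -3.08 for day 6 against day 0.

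**Figure D5:**
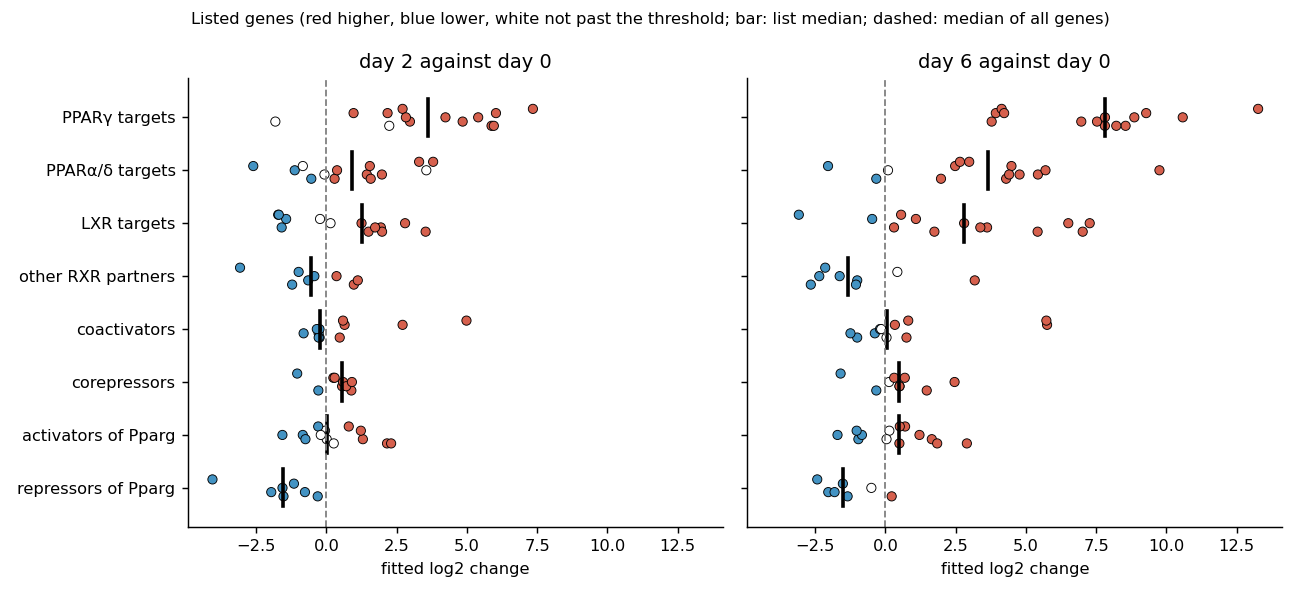
Fitted log2 change of each listed gene (points, spread vertically only to separate them) for day 2 against day 0 and day 6 against day 0, in red where higher, blue where lower and white where the adjusted p did not pass by edgeR, with a bar at the list median and a dashed line at the median of all genes. Medians at day 6 are 7.81 for PPARγ targets, 3.64 for PPARα and PPARδ targets and 2.80 for LXR targets, and the value of Ucp3, which had 0 counts at day 0, depends on the prior count.

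RXR has other partners, and most of those tested were lower at day 6 than at day 0. Of all genes tested, 33.6% were higher and 33.6% lower at day 2, and 35.9% and 35.1% at day 6, each against day 0. Of 8 tested out of 11 listed, 3 rose and 5 fell at day 2 against day 0 (3 fell without replicate 76 or 77 of day 0, and 2 without replicate 76 of day 2), and 1 rose and 6 fell at day 6 against day 0. The retinoic acid receptor gene Rarg had 94.4 ± 1.47 CPM at day 0, 11.2 ± 0.516 CPM at day 2 and 21.4 ± 2.53 CPM at day 6, and Thra, a thyroid hormone receptor, 164 ± 5.44 CPM at day 0, 70.7 ± 6.67 CPM at day 2 and 79.5 ± 7.58 CPM at day 6. The other thyroid hormone receptor, Thrb, was the member that rose by day 6, with 3.90 ± 0.132 CPM at day 0, 8.47 ± 0.980 CPM at day 2 and 35.3 ± 0.956 CPM at day 6 (9.05-fold higher at day 6 than at day 0, adjusted p = 1.47e-07 by edgeR). Vdr, the vitamin D receptor, had 53.5 ± 4.78 CPM at day 0, 68.9 ± 10.3 CPM at day 2 and 10.5 ± 0.882 CPM at day 6, and the orphan receptor Nr4a1 48.7 ± 2.61 CPM at day 0, 95.9 ± 6.27 CPM at day 2 and 7.76 ± 1.37 CPM at day 6, both highest at day 2 and lowest at day 6.

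Some coactivators rose and others fell, as did genes at large. Of all genes tested, 33.6% were higher and 33.6% lower at day 2, and 35.9% and 35.1% at day 6, each against day 0. The coactivator medians of log2 change were -0.24 and 0.04. Of 11, 5 rose and 6 fell at day 2 against day 0, and 5 rose and 4 fell at day 6 against day 0. The count of 6 was 3 without replicate 76 of day 0, 1 without replicate 77 of day 0 2 without replicate 76 of day 2 and 1 with library totals, and the count of 4 was 2 without replicate 77 of day 0. Ppargc1a, a coactivator of PPARγ and PPARα that the series title names by its protein, had 0.797 ± 0.137 CPM at day 0, 5.31 ± 0.162 CPM at day 2 and 43.6 ± 5.73 CPM at day 6 (53.9-fold higher at day 6 than at day 0, log2 change 5.75, SE 0.17, adjusted p = 4.81e-08 by edgeR). Its relative Ppargc1b had 0.883 ± 0.0319 CPM at day 0, 28.1 ± 4.44 CPM at day 2 and 46.9 ± 0.149 CPM at day 6 (52.9-fold, log2 change 5.73, SE 0.17, adjusted p = 4.24e-08). The pair ended at like fitted changes by different routes, since Ppargc1b had reached 4.99 by day 2 and Ppargc1a 2.71. Ncoa3, a steroid receptor coactivator, had 46.6 ± 1.61 CPM at day 0, 26.6 ± 2.86 CPM at day 2 and 19.7 ± 3.10 CPM at day 6 and Carm1, a histone arginine methyltransferase, 112 ± 0.460 CPM at day 0, 94.8 ± 7.31 CPM at day 2 and 55.8 ± 5.70 CPM at day 6.

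Of 9 corepressors, 7 rose and 2 fell at day 2 against day 0, and 6 rose and 2 fell at day 6 against day 0. Their median log2 changes were 0.56 and 0.50. Of all genes tested, 33.6% were higher and 33.6% lower at day 2, and 35.9% and 35.1% at day 6. Nrip1, a corepressor of nuclear receptors in fat, had 64.4 ± 1.52 CPM at day 0, 119 ± 1.33 CPM at day 2 and 178 ± 3.82 CPM at day 6, and Lcor 4.74 ± 1.27 CPM at day 0, 7.09 ± 0.135 CPM at day 2 and 25.8 ± 1.42 CPM at day 6. Gps2, called lower on both days, had 18.7 ± 1.10 CPM at day 0, 15.3 ± 1.43 CPM at day 2 and 14.9 ± 0.457 CPM at day 6, and its edgeR adjusted p at day 2 was 0.651 once day 0 library 77 was left out. Tbl1x, a subunit of corepressor complexes, was high at day 2 alone, with 120.2 ± 2.89 CPM at day 0, 226 ± 4.01 CPM at day 2 and 131 ± 5.42 CPM at day 6.

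Factors known to act on the Pparg gene were read beside it. Of 13 that act positively, 5 rose and 4 fell at day 2 against day 0, and 7 rose and 4 fell at day 6 against day 0. Their median log2 changes were 0.01 and 0.50. Of all genes tested, 33.6% were higher and 33.6% lower at day 2, and 35.9% and 35.1% at day 6. Cebpa, which with Pparg maintains the fat cell state, had 257 ± 37.4 CPM at day 0, 1147 ± 202 CPM at day 2 and 1914 ± 58.1 CPM at day 6 (log2 change 2.16, SE 0.15, adjusted p = 6.97e-06 for day 2 against day 0 by edgeR). Cebpb and Cebpd, the early C/EBP factors, had other courses. Cebpb had 116 ± 0.661 CPM at day 0, 117 ± 11.4 CPM at day 2 and 59.7 ± 6.27 CPM at day 6 and did not pass at day 2 (log2 change 0.01, SE 0.093, adjusted p = 0.909), and Cebpd had 141 ± 4.05 CPM at day 0, 78.9 ± 4.68 CPM at day 2 and 43.3 ± 5.56 CPM at day 6 (log2 change -0.84, SE 0.092, adjusted p = 7.88e-05). Of their exonic length, 20.7% and 15.0% overlap other genes. Egr2, a zinc finger factor of early adipogenesis, peaked at day 2 with 9.49 ± 1.30 CPM at day 0, 46.8 ± 3.99 CPM at day 2 and 13.4 ± 1.54 CPM at day 6, while Stat5a had 24.5 ± 4.01 CPM at day 0, 29.4 ± 1.05 CPM at day 2 and 87.7 ± 11.1 CPM at day 6 and gained after day 2, as did Zfp423, with 14.5 ± 0.0718 CPM at day 0, 12.6 ± 0.899 CPM at day 2 and 33.5 ± 0.0761 CPM at day 6. Klf4 had 137 ± 4.80 CPM at day 0, 46.4 ± 2.52 CPM at day 2 and 76.8 ± 16.1 CPM at day 6, and Klf5 1.07 ± 0.294 CPM at day 0, 2.48 ± 0.0000849 CPM at day 2 and 0.512 ± 0.160 CPM at day 6. All 7 factors that act negatively on Pparg were lower at day 2 than at day 0, beside 33.6% of all genes, with a median log2 change of -1.52. Klf2 had 40.1 ± 0.981 CPM at day 0, 2.41 ± 0.0962 CPM at day 2 and 7.48 ± 1.55 CPM at day 6 (16.6-fold lower at day 2 than at day 0, adjusted p = 4.79e-07 by edgeR), and Zfp521, an antagonist of the fat cell factors Ebf1 and Zfp423, 110.3 ± 6.54 CPM at day 0, 28.4 ± 0.167 CPM at day 2 and 31.5 ± 7.58 CPM at day 6. Gata2, a factor of precursors, went on falling, with 16.3 ± 1.68 CPM at day 0, 9.61 ± 0.0617 CPM at day 2 and 3.99 ± 0.910 CPM at day 6, and Hes1, a target of Notch signalling, had 20.0 ± 0.0875 CPM at day 0, 8.99 ± 0.606 CPM at day 2 and 6.99 ± 0.156 CPM at day 6. At day 6 against day 0, 5 of the 7 were lower and 1 was higher, Tcf7l2, whose call was lost in 10 of 12 alternatives and whose direction turned with library totals (log2 change -0.02).

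The genes closest to each receptor in course were found among 12532 genes with a mean of at least 1 CPM, by the root mean square difference of centred log2 CPM over the 6 libraries. Closest to Pparg was Abhd5, the activator of the main triglyceride lipase, which had means of 36.6, 351 and 614 CPM at days 0, 2 and 6 and differed by 0.0519 on the log2 scale, and next came Bcar3 (0.133) and 4930458D05Rik (0.139). Closest to Ppara were Bche, a cholinesterase (0.192, means of 0.784, 2.76 and 37.5 CPM), Gm9899 (0.208) and Acadm, the medium-chain acyl-CoA dehydrogenase (0.208), which is itself on the list of PPARα targets. Rxrg lay nearest to the orphan G protein-coupled receptor Gprc5c (0.177), the sialyltransferase St3gal6 (0.184) and Pfkfb1 (0.203). Nr1h3 lay nearest to Dlat, a subunit of pyruvate dehydrogenase (0.0822, means of 86.4, 228 and 1558 CPM), the cytosolic malate dehydrogenase Mdh1 (0.1) and 4931406C07Rik (0.108). Among the flatter receptors, Ppard was closest to the noncoding RNA Tug1 (0.0175), Rxra to the deubiquitinase Usp28 (0.0193) and Nr1h2 to Tcf25 (0.0291). The nearest genes were picked for likeness over 6 libraries that share their days, so the distances are a description.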

How the data were processed

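RNA was measured in 6 libraries, 2 for each of 3 days. Per the labels' protocols, oligo-dT enriched RNA was sheared to about 200 bp and primed with random hexamers. The values are read counts per gene as deposited, made with TopHat2 2.0.13 and HTSeq 0.9.1 on mm10 (GRCm38), per the submitters' processing notes. The column names say RPKM, but the values are whole numbers with different totals and carry the HTSeq summary lines, so they were treated as raw counts. Neither the annotation nor the strand setting appears in the sources used here. The 5 summary lines, 11.8% to 16.1% of alignments, were left out, and 4.16% to 9.05% were alignments that were not unique. In 25 symbols a name had turned into a date.

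Counts were fitted with edgeR 4.0.16 (R 4.3.3; TMM, filterByExpr, 1 mean per day, 3 residual degrees of freedom, quasi-likelihood F test, Benjamini-Hochberg over all 14459 genes tested, threshold 0.05), and 31349 lines were too low to test. The standard error is the size of the unshrunk log2 change divided by the square root of F. DESeq2 1.42.0 and other scalings, filters, samples and left-out libraries were alternatives. The procedure was tested on simulated counts. Replicates differed by more than counting noise, and their chi-square per degree of freedom was 6.75, 7.53 and 26.3 on days 0, 2 and 6, so none was counted as a copy. Exon lengths, positions and overlaps came from GENCODE M21, in which 41919 of 45806 symbols matched, and promoter windows from RefSeq (GRCm38.p6). A 50-base stretch counts as shared when it occurs in a transcript of another gene.

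The receptors and the gene lists were chosen with earlier results of these data known. Of each list, the text names the 2 genes with the largest fitted rise and the 2 with the largest fall per comparison among those that passed and whose days did not overlap, plus Ppargc1a, Ppargc1b, Cebpa, Cebpb and Cebpd. Acadm, Aqp7, Plin2, Abca1, Abcg1, Ly6a, Lep, Sox10 and Gfra3 were named after their values were seen, for their course, site or marker role. Some genes that this rule names are not reported here.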

Additional observations from a re-analysis of the deposited data

How the results depend on the processing

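The rises of Pparg, Ppara, Rxrg and Nr1h3 passed in all 3 comparisons under all 12 alternatives. Over the 8 receptors, 336 of 368 alternative values kept their direction and their side of the threshold, 19 kept the direction and lost the call, 6 gained one and 7 changed sign. Of 1152 values of named list genes, 37 lost the call and 2 changed sign, and 84 of 1152 list counts moved by more than 1.5 times. With the longest transcript as the length, 22 of 24 family shares moved by more than their SD. With library totals alone, the log2 change of Ppard was 0.18 for day 2 against day 0 (now past the threshold) and 0.029 for day 6 against day 2 (no longer past it). That of Rxra was -0.074 for day 6 against day 0 and -0.39 for day 6 against day 2, now past the threshold. Rxrb had 0.084 for day 2 against day 0, -0.35 for day 6 against day 0 and -0.43 for day 6 against day 2, the last 2 past the threshold, with an adjusted p of 0.00215 in edgeR's joint test. Nr1h2 had -0.28 for day 6 against day 0, now past the threshold, and 0.00055 for day 6 against day 2, no longer past it, and Tcf7l2 -0.025 for day 6 against day 0. Under the same scaling 3650 genes were higher and 6181 lower at day 6 than at day 2. These values carry the shift of the all-gene median given above.

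For Rxra at day 6 against day 0 the call was lost with DESeq2 size factors (log2 change 0.14), with no filter on low counts (0.18), in the DESeq2 Wald test (0.14) and with only the 2 days compared in the fit (0.18), and with no filter its adjusted p in edgeR's joint test was 0.0753. Rxrb at day 2 against day 0 changed sign with DESeq2 size factors (0.013) and in the Wald test (0.021). The cause was not tested. Leaving out 1 library at a time gave Rxra 0.18 to 0.38 for day 2 against day 0, 0.14 to 0.21 for day 6 against day 0 and adjusted p from 0.0132 to 0.288 in edgeR's joint test. It gave Rxrb -0.097 to 0.13 for day 2 against day 0 and -0.21 to 0.0026 for day 6 against day 2, and Cebpb -0.081 to 0.17 for day 2 against day 0. A day left with 1 library is assumed to vary like the others.

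Replicate numbers recur on each day, but with 2 numbers and no label that ties them to a mouse they may be no more than a number. Deviations of same-numbered libraries correlated across 14459 genes, which are not independent, at r = 0.109, 0.112 and 0.213 for the 3 pairs of days. With the replicate number as a block, Rxra had a log2 change of 0.17 for day 6 against day 0 (edgeR adjusted p = 0.0589), and no other call of the 8 receptors changed.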

Other observations

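Outside the PPAR, RXR and LXR genes, several hormone and orphan receptors also changed over the course. Pgr, the progesterone receptor, had 34.9 ± 6.58 CPM at day 0, 1.82 ± 0.937 CPM at day 2 and 2.53 ± 1.43 CPM at day 6, and was lower at day 2 and at day 6 than at day 0 (log2 change -4.27 and -3.80, edgeR adjusted p = 1.59e-05 and 2.11e-05). Nr4a3, an immediate early orphan receptor, had 3.25 ± 0.642 CPM at day 0, 5.94 ± 0.755 CPM at day 2 and 0.567 ± 0.0441 CPM at day 6 (log2 change -3.38 for day 6 against day 2, adjusted p = 1.34e-05). Rorb, a retinoid-related orphan receptor, had 4.10 ± 0.797 CPM at day 0, 8.54 ± 0.0194 CPM at day 2 and 3.37 ± 0.471 CPM at day 6 (log2 change 1.05 for day 2 against day 0, adjusted p = 0.000937).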
